A study of Mus musculus with 167 samples.

Results

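The HOX genes are the homeobox transcription factor genes that lie in the Hoxa, Hoxb, Hoxc and Hoxd clusters, and the levels of all 39 of them were followed from mouse embryonic fibroblasts into cells transduced with dendritic cell factors. They were chosen by name, as every identifier of the count table whose mouse symbol is a HOX cluster letter followed by a paralogue number, which gave 39 of 57010 identifiers. HOX genes are arranged along each cluster in the order in which they are used along the body axis. Anterior genes, with low paralogue numbers, mark hindbrain and neck levels, central genes mark the trunk, and posterior genes mark the lumbar, sacral and tail levels and the distal limbs. Fibroblasts keep much of this code in culture, so the set of HOX genes that a fibroblast expresses is known as a record of where in the body it came from. Here paralogue groups 1 to 4 are called anterior, 5 to 8 central and 9 to 13 posterior, and the group 9 genes Hoxb9 and Hoxc9, which mark thoracic levels, are named with the trunk genes where single genes are described.

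The series holds bulk RNA libraries in 41 groups of 3 to 5, each made from RNA of 5000 sorted live cells. Fibroblasts carrying 3 transduced factors were collected on days 3, 6 and 9 and sorted as positive for a Cre reporter, for the leukocyte surface protein CD45, or for both, which is called double positive below. PIB is Pu.1, Irf8 and Batf3, PIP is Pu.1, Irf4 and Prdm1, and SII is Spib, Irf8 and Ikzf2. PIB, PIP and C9a.SII cells were made from C9a.MEF fibroblasts, double homozygous for Clec9a(Cre/Cre) and Rosa26(tdTomato/tdTomato), whose tdTomato reporter turns on where the Clec9a locus has driven Cre. The hCD2.SII cells were made from hCD2.MEF fibroblasts, heterozygous for hCD2(Cre/WT) and Rosa26(YFP/WT) on a C57BL/6 background, whose YFP reporter turns on where hCD2 Cre was made. These cells were set against 4 libraries each of untransduced C9a.MEF cells sorted as tdT-CD45- and of hCD2.MEF cells sorted as YFP-CD45-. Conventional dendritic cells of type 1 (cDC1, 3 libraries) and type 2 (cDC2, 3 libraries) and plasmacytoid dendritic cells (pDC, 5 libraries) came from the spleen of wildtype mice. The labels do not say whether replicates came from separate embryos, cultures or transductions, so p-values measure only the spread between these libraries.

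Library totals ran from 1146927 to 21976374 counts, with a median of 10960122. Levels are CPM, the count of a gene per 1000000 counts of its library. Single genes are ranked as CPM per kilobase of exon. Sums over genes and remarks on clusters are in plain CPM, not corrected for exon length or the number of genes. As a floor, 1969 olfactory and vomeronasal receptor genes averaged 0.0302 to 0.0420 CPM per kilobase in the 8 untransduced fibroblast libraries. They averaged 2.504 CPM per kilobase in C9a.SII day 9 double-positive replicate 1, the library with the fewest counts, and 3.52 in pDC replicate 1. The fibroblast label held: Col1a1, a fibrillar collagen gene, was at 6351 to 7544 CPM in the untransduced libraries and Ptprc, the gene of CD45, at 0 to 0.368 CPM. Of the 35 hCD2.SII libraries, 11 had under 10 CPM of Xist, the RNA of the inactive X chromosome in female cells, at 0.492 to 6.94 CPM, and the sum of 4 Y-linked genes was 128.1 to 285 CPM there. The other 24 had 36.99 to 269 CPM of Xist and 61.3 to 117.4 CPM of the Y-linked sum, and hCD2.MEF had 123.4 to 211 and 49.7 to 52.9 CPM. Those 11 libraries include day 9 double-positive replicates 2 and 3, so the calls in hCD2.SII double-positive cells are given with and without them.

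Upstream sequence is shown for genes whose levels separate the groups below: Hoxd13 and Hoxa13 at the posterior ends of the Hoxd and Hoxa clusters, Hoxd11 beside Hoxd13, and the trunk gene Hoxb8. Each line holds the 250 bases before a transcript start on the strand of the gene, from RefSeq on GRCm38.p6, written 5′ to 3′. Capitals mark matches to any of 6 motifs, searched on both strands: the composite element of ETS and IRF factors, which is GGAA and GAAA with 2 free bases between them, an IRF repeat, which is GAAA and GAAA with 2 free bases between them, GAGGAAGT, a PU.1 and SPIB site, TGANTCA, the AP-1 site also read by BATF dimers, TGATNNAT, a joint PBX and HOX site, and TTTATNG, a site of CDX factors.
Hoxd13, chr2:74667975-74668224, plus strand: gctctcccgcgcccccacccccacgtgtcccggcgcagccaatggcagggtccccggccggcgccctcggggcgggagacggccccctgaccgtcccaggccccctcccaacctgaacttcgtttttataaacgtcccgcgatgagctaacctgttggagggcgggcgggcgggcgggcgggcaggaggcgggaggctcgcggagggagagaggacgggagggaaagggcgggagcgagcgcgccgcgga
Hoxd11, chr2:74679308-74679557, plus strand: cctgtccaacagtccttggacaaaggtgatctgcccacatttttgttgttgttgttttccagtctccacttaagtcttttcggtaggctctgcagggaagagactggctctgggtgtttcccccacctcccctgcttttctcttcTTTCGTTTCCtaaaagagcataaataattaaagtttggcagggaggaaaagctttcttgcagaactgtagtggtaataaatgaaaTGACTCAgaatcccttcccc
Hoxa13, chr6:52260881-52261130, minus strand: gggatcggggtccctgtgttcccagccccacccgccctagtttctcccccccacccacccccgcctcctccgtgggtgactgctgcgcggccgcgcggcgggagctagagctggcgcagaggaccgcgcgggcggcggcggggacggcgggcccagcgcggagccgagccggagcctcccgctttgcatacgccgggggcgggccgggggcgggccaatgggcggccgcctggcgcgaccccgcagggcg
Hoxb8, chr11:96281655-96281904, plus strand: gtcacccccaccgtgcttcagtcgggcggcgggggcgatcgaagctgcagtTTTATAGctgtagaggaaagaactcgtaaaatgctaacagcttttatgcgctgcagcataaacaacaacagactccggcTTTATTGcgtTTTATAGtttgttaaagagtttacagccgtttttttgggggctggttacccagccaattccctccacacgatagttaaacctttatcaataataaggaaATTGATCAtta
The Hoxd13 window is 74.4% G and C with 31 CpG pairs and the Hoxa13 window 80% with 35, and neither holds any of the motifs. The Hoxd11 window, 1 of 2 that RefSeq has for this gene, has 2 CpG pairs, 1 ETS and IRF composite match and 1 AP-1 match, and the Hoxb8 window has 12 CpG pairs, 1 PBX and HOX match and 3 CDX matches. RefSeq windows were at hand for 24 starts of 22 HOX genes, with a median of 12.5 CpG pairs, against 6 over all 32851 windows of 27025 genes. The composite element was in 1 of the 24 HOX windows and in 2.30% of all windows, the IRF repeat in 0 of 24 and 2.98%, and the PU.1 and SPIB site in 1 of 24, that of Hoxc4, and 2.44%. The AP-1 site was in 1 of 24 and 6.75%, the PBX and HOX site in 4 of 24 and 7.68%, and the CDX site in 2 of 24 and 9.81%. A match is a description of letters, and none of the 3 factor sets was tested for binding.

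The untransduced fibroblasts carried a trunk code. Of the 39 genes, 35 averaged at least 1 CPM in C9a.MEF and 35 in hCD2.MEF, 23 and 20 averaged at least 5 CPM, and 16 and 14 at least 10 CPM. Per kilobase the order in C9a.MEF was Hoxc12 (26.8 CPM per kilobase), Hoxc6 (16.8), Hoxb9 (13.1), Hoxc8 (12.8) and Hoxb7 (12.8), and in hCD2.MEF it was Hoxc12 (30.05), Hoxb9 (14.5), Hoxc6 (14.4), Hoxb7 (12.2) and Hoxc8 (11.9). The central genes summed to 179.9 ± 5.6 CPM in C9a.MEF and 167.7 ± 10.0 in hCD2.MEF (SD, n = 4 each), the posterior genes to 150.7 ± 6.7 and 143.5 ± 13.2, and the anterior genes to 70.4 ± 4.3 and 73.6 ± 3.8. Hoxb1, the most anterior Hoxb gene, Hoxb13, Hoxd1 and Hoxc11 averaged under 1 CPM in both lines. Genes between those levels and 5 CPM in both lines included Hoxa2, Hoxa4, Hoxa5, Hoxa6, Hoxa13, Hoxc13, Hoxd3, Hoxd4, Hoxd9, Hoxd10 and Hoxd12, with means of 1.46 to 4.90 CPM in C9a.MEF and 1.11 to 4.33 CPM in hCD2.MEF.

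The highest trunk genes, which specify rib-bearing and lumbar vertebrae, were close to each other in both lines. Hoxc6 was at 41.6, 43.4, 39.99 and 37.2 CPM in the C9a.MEF libraries, and at 35.2, 34.4, 30.8 and 38.3 CPM in hCD2.MEF. Hoxc8 was at 35.8, 38.9, 36.2 and 34.01 CPM in C9a.MEF, and at 35.8, 35.4, 31.5 and 32.6 CPM in hCD2.MEF. The lines overlapped for both genes. Hoxb9, the last gene of the Hoxb cluster apart from Hoxb13, was at 32.1, 33.3, 35.4 and 33.9 CPM in C9a.MEF, and at 38.6, 36.96, 36.6 and 37.1 CPM in hCD2.MEF, with no overlap. Hoxc12 was at 28.6, 30.8, 26.2 and 24.7 CPM in C9a.MEF, and at 23.5, 33.8, 27.4 and 39.2 CPM in hCD2.MEF. Its level is no mark of fibroblasts here, because Hoxc12 was also at 12.9 to 34.6 CPM in all 11 spleen libraries.

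The rest of the Hoxb cluster from group 2 to group 8 was expressed in every library of both lines. Hoxb7 was at 19.5, 20.6, 19.5 and 19.3 CPM in C9a.MEF, and at 20.3, 19.4, 16.7 and 19.2 CPM in hCD2.MEF. Hoxb3 was at 18.5, 18.5, 18.5 and 16.2 CPM in C9a.MEF, and at 16.7, 18.1, 16.7 and 15.9 CPM in hCD2.MEF. Hoxb8 was at 15.6, 17.1, 18.2 and 18.04 CPM in C9a.MEF, and at 18.1, 19.5, 16.5 and 17.6 CPM in hCD2.MEF. All 3 overlapped between the lines. Hoxb6 was at 17.6, 13.7, 16.1 and 17.4 CPM in C9a.MEF, and at 17.4, 19.9, 16.6 and 15.4 CPM in hCD2.MEF. Hoxb4 was at 15.97, 13.9, 16.4 and 14.4 CPM in C9a.MEF, and at 16.4, 15.8, 15.8 and 17.7 CPM in hCD2.MEF. These genes overlapped as well. Hoxb2, a hindbrain gene, was at 10.8, 11.2, 12.3 and 11.1 CPM in C9a.MEF, and at 12.6, 11.6, 11.2 and 10.7 CPM in hCD2.MEF. Hoxb5 was at 8.49, 7.23, 6.16 and 6.01 CPM in C9a.MEF, and at 5.86, 5.67, 6.45 and 5.63 CPM in hCD2.MEF. Part of the exons of Hoxb2 and Hoxb3 overlap Hoxb3os on the other strand, so their counts are uncertain if reads were not assigned by strand. Other genes overlap in this way too, among them Hoxa7 with Hoxaas3 and Hoxa11 with Hoxa11os. On the same strand, Hoxd10 and Hoxd11 share exon bases with Gm28309. Hoxd3 and Hoxd4 share such bases with each other and with Gm28230, so reads there can belong to either gene.

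In the Hoxc cluster the genes at the trunk and lumbar end were above those at the neck end. Hoxc9, a thoracic gene, was at 16.7, 18.6, 18.6 and 18.4 CPM in C9a.MEF, and at 18.9, 17.4, 13.2 and 21.3 CPM in hCD2.MEF. Hoxc10, a lumbar and hindlimb gene, was at 13.1, 14.9, 16.5 and 12.3 CPM in C9a.MEF, and at 25.4, 19.05, 16.95 and 22.4 CPM in hCD2.MEF. The lines did not overlap for Hoxc10 and did for Hoxc9. Hoxc4 was at 9.40, 7.68, 8.73 and 7.63 CPM in C9a.MEF, and at 10.96, 10.2, 6.62 and 8.91 CPM in hCD2.MEF. Hoxc5 was at 8.94, 10.98, 8.82 and 7.33 CPM in C9a.MEF, and at 9.00, 8.59, 8.03 and 8.74 CPM in hCD2.MEF. Hoxc5 and Hoxc10 share bases of annotated exon on 1 strand, so reads there can belong to either.

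The Hoxa cluster was lower than the Hoxb and Hoxc clusters in summed CPM. Hoxa7 was at 13.7, 12.8, 15.3 and 14.0 CPM in C9a.MEF, and at 17.1, 13.8, 13.6 and 12.1 CPM in hCD2.MEF. Hoxa10 was at 10.8, 11.96, 14.98 and 11.7 CPM in C9a.MEF, and at 11.1, 8.27, 8.92 and 9.58 CPM in hCD2.MEF. Hoxa9 was at 7.39, 7.05, 6.71 and 7.40 CPM in C9a.MEF, and at 7.47, 5.51, 6.80 and 6.39 CPM in hCD2.MEF. All of these overlapped. Hoxa3 was at 6.39, 4.11, 5.79 and 5.94 CPM in C9a.MEF, and at 6.35, 7.13, 6.27 and 5.46 CPM in hCD2.MEF. Hoxa11, which patterns the forearm and lower leg, was at 4.47, 5.36, 6.53 and 5.86 CPM in C9a.MEF, and at 5.30, 3.73, 4.59 and 4.71 CPM in hCD2.MEF. Hoxd8 was at 12.5, 13.7, 15.6 and 12.6 CPM in C9a.MEF, and at 11.9, 9.73, 9.36 and 12.6 CPM in hCD2.MEF, again with overlap.

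**Figure D1:**
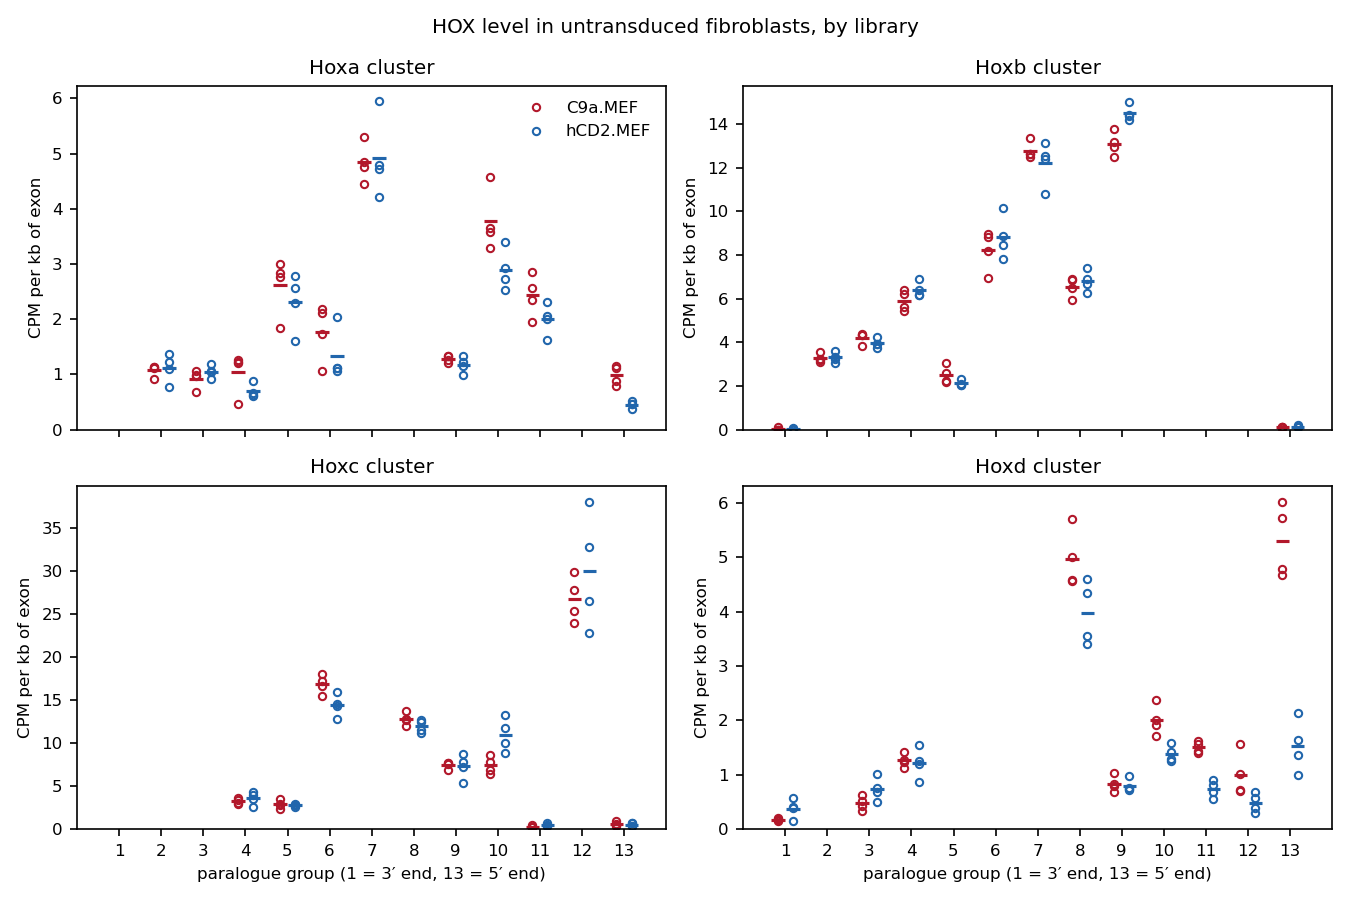
Levels of HOX genes in untransduced fibroblasts, in CPM per kilobase of exon, by cluster and paralogue group, for C9a.MEF and hCD2.MEF. Circles are the 4 libraries of each line, bars their means, and each panel has its own scale. After Hoxc12 the highest levels are those of Hoxc6, Hoxb9, Hoxc8 and Hoxb7, and the lines part at Hoxd11 to Hoxd13.

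Where the 2 lines differed by at least 2-fold, C9a.MEF was higher, in Hoxd11 to Hoxd13 and Hoxa13. Posterior Hoxc genes did not follow, with log2 fold changes, C9a.MEF over hCD2.MEF, of -0.20 ± 0.17 for Hoxc12 and 0.13 ± 0.35 for Hoxc13 (SE). Hoxd13, Hoxd12, Hoxd11 and Hoxa13, which pattern the hands, feet and external genitalia, were at least 2-fold higher in C9a.MEF, and no HOX gene was called lower. Hoxd13 was at 11.6, 14.2, 11.9 and 14.96 CPM in C9a.MEF, and at 4.05, 3.40, 2.47 and 5.29 CPM in hCD2.MEF. Hoxd11 was at 6.84, 5.89, 6.62 and 6.01 CPM in C9a.MEF, and at 3.77, 2.84, 2.30 and 3.45 CPM in hCD2.MEF. For both genes every C9a.MEF library was above every hCD2.MEF library. Hoxa13 was at 2.83, 2.77, 1.93 and 2.16 CPM in C9a.MEF, and at 0.907, 1.13, 1.15 and 1.26 CPM in hCD2.MEF. Hoxd12 was at 1.82, 1.79, 3.95 and 2.54 CPM in C9a.MEF, and at 1.74, 0.729, 0.971 and 1.43 CPM in hCD2.MEF. These 2 genes were low, and the groups did not overlap.

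In log2 fold change, C9a.MEF over hCD2.MEF, Hoxd13 was 1.76 ± 0.18 (SE; edgeR adjusted p = 4.8e-06), Hoxa13 was 1.09 ± 0.27 (adjusted p = 0.0093), Hoxd12 was 1.01 ± 0.33 (adjusted p = 0.040) and Hoxd11 was 1.01 ± 0.17 (adjusted p = 0.00055). These 4 of 35 tested HOX genes passed in the higher direction, against 1.5% of all 15364 genes tested, and 0 passed in the lower direction, against 1.43%. Among the 35, 11 had an unadjusted p under 0.05, which is given without the share of all genes and is not read as a HOX result. Hoxc10 was lower in C9a.MEF at -0.59 ± 0.12 (adjusted p = 0.0022), short of 2-fold. The median over the HOX genes was 0.04 and over all genes 0.004. Of 13 settings Hoxd13 kept its call in 12, Hoxa13 in 11, Hoxd11 in 8 and Hoxd12 in 7. In 1 fit over all 41 groups, whose spread includes the transduced libraries, none of the 4 passed (adjusted p = 0.51 to 0.87) while the log2 fold changes were 1.03 to 1.79.

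Among genes that act with or upstream of HOX genes only Cyp26b1 was called between the lines. Over all 15364 genes tested 1.5% were called higher in C9a.MEF and 1.43% lower. None of the 9 genes for HOX cofactors, which are the PBX, MEIS and PKNOX proteins that bind DNA beside HOX proteins, passed in either direction. Of the 9 tested genes known to act upstream, Cyp26b1, which breaks down retinoic acid in distal limbs, was higher in C9a.MEF, at 21.7, 27.1, 34.5 and 27.99 CPM, against 12.1, 10.2, 13.2 and 11.8 CPM in hCD2.MEF (log2 1.21 ± 0.13, adjusted p = 1.1e-05). The C9a.MEF libraries were all above those of hCD2.MEF. Of 21 tested limb and trunk factors Pax3 was higher (log2 1.12 ± 0.25, adjusted p = 0.0039), and of 8 tested noncoding and flanking genes of the clusters Hoxb5os was higher (log2 1.26 ± 0.30, adjusted p = 0.0072). None of 19 tested head and ventral organ factors passed, and no gene of these lists passed in the lower direction. Of 9 fibroblast markers 2 were higher in C9a.MEF and none lower.

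PIP took most of the code down by day 9. In double-positive PIP cells 20 of 36 tested HOX genes fell against C9a.MEF, from every cluster and every class, and 1 rose. Over all 19506 genes tested 12.4% were called lower and 12.5% higher. The median log2 change was -1.15 over the HOX genes and 0.09 over all genes. Summed without Hoxc12, which was high in every group, the HOX genes were at 141.1 ± 3.8 CPM in PIP cells and 373.5 ± 11.9 CPM in C9a.MEF (SD, n = 4 each). In bulk RNA, fewer cells that express a gene and less RNA of it per cell cannot be told apart.

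Trunk genes were among those that fell most. Hoxc8 was at 3.38, 3.80, 2.96 and 4.38 CPM in PIP day 9 double-positive cells, against the 34.01 to 38.9 CPM of C9a.MEF given above (log2 -3.12 ± 0.24, adjusted p = 2.0e-11). Hoxb9 was at 4.69, 4.85, 5.39 and 3.29 CPM in PIP cells, against 32.1 to 35.4 CPM in C9a.MEF (log2 -2.68 ± 0.24, adjusted p = 3.3e-10). No PIP library came near the fibroblast range for either gene. Hoxc6 was at 6.00, 6.16, 5.57 and 5.29 CPM in PIP cells, against 37.2 to 43.4 CPM in C9a.MEF (log2 -2.61 ± 0.29, adjusted p = 3.8e-08). Hoxb8 was at 2.38, 2.36, 3.504 and 2.92 CPM in PIP cells, against 15.6 to 18.2 CPM in C9a.MEF (log2 -2.43 ± 0.24, adjusted p = 2.8e-09). The groups were again apart. Of the 11 central genes 8 fell, of the 15 tested posterior genes 8 fell, and of the 10 tested anterior genes 4 fell. The anterior gene Hoxa2, which controls the identity of the second pharyngeal arch, was at 0.231, 0.131, 0.270 and 0.183 CPM in PIP cells, against 2.01, 1.96, 2.02 and 1.62 CPM in C9a.MEF (log2 -2.98 ± 0.43, adjusted p = 1.8e-06). Hoxd13 was at 3.54, 3.28, 3.32 and 2.83 CPM in PIP cells, against 11.6 to 14.96 CPM in C9a.MEF (log2 -1.81 ± 0.55, adjusted p = 0.0097). Others that fell were Hoxa3, Hoxa5, Hoxa6, Hoxa10, Hoxb3, Hoxb6, Hoxb7, Hoxc5, Hoxc9, Hoxc10, Hoxc13, Hoxd11 and Hoxd12, at log2 changes of -1.12 to -1.66.

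A few genes stood at fibroblast levels in the same PIP libraries. Hoxb4, the anterior gene beside the trunk genes, was at 14.0, 12.9, 11.9 and 13.7 CPM in PIP cells, against 13.9 to 16.4 CPM in C9a.MEF (log2 -0.01 ± 0.17, adjusted p = 0.98). Hoxd8 was at 12.3, 11.6, 12.9 and 9.95 CPM in PIP cells, against 12.5 to 15.6 CPM in C9a.MEF (log2 -0.01 ± 0.17, adjusted p = 0.96). Hoxa7 was at 12.5, 14.2, 12.8 and 16.4 CPM in PIP cells, against 12.8 to 15.3 CPM in C9a.MEF (log2 0.20 ± 0.20, adjusted p = 0.44). CPM are of the library total, while the log2 values also carry the TMM scaling of the fit. These genes overlapped or lay close to C9a.MEF. Hoxd9 rose, at 6.46, 4.59, 4.13 and 6.66 CPM in PIP cells, against 1.46, 1.70, 2.21 and 1.77 CPM in C9a.MEF (log2 1.81 ± 0.27, adjusted p = 2.0e-06), and every PIP library was above every fibroblast library. Hoxc12 was at 65.4, 40.6, 45.4 and 37.1 CPM in PIP cells, against 24.7 to 30.8 CPM in C9a.MEF (log2 0.98 ± 0.33, adjusted p = 0.016), short of 2-fold. Of the calls in PIP, Hoxa6 held in 10 of 16 settings, Hoxc13 in 9 of 15, Hoxd12 in 9 of 16 and Hoxd11 in 13 of 16.

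Markers of fibroblasts and leukocytes moved in the same libraries. All 9 fibroblast markers fell in PIP cells and their sum was 1006 to 1290 CPM, against 15171 to 16324 CPM in C9a.MEF. All 9 also fell in C9a.SII cells, to 1567 to 2284 CPM, where 1 HOX gene was called lower. The 6 leukocyte markers all rose in PIP cells, to a sum of 341 to 419 CPM, against 2.37 to 4.32 CPM in C9a.MEF. The part of fewer fibroblasts or of cell state in the fall was not tested.

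After PIB most trunk genes were within 2-fold of the fibroblasts on day 9, and 4 of 15 tested posterior genes were higher. Of 36 tested HOX genes 4 rose in PIB double-positive cells against C9a.MEF, Hoxd10, Hoxd11, Hoxd12 and Hoxa13, and 2 fell, among them Hoxc13, while 9.11% of all tested genes rose and 9.31% fell, so the share of HOX genes that rose, 11.1%, is near that of all genes. The median was 0.02 over the HOX genes and 0.01 over all genes. The sum without Hoxc12 was 387.2 ± 16.2 CPM in PIB cells (SD, n = 5) and 373.5 ± 11.9 CPM in C9a.MEF (SD, n = 4). Hoxc8 was at 38.1, 36.6, 37.9, 35.1 and 40.6 CPM in PIB cells, against 34.01 to 38.9 CPM in C9a.MEF (log2 0.13 ± 0.20, adjusted p = 0.67). Hoxc6 was at 34.3, 35.96, 35.2, 38.8 and 50.1 CPM in PIB cells, against 37.2 to 43.4 CPM in C9a.MEF (log2 0.01 ± 0.25, adjusted p = 0.98). Both overlapped. Hoxb9 was at 19.5, 20.3, 23.5, 22.8 and 19.4 CPM in PIB cells, below all of C9a.MEF, but at a log2 change of -0.59 ± 0.21 (adjusted p = 0.023) it did not reach 2-fold.

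The higher levels of these 4 posterior genes were in 4 of the 5 PIB libraries. Hoxd11 was at 23.1, 23.1, 23.8, 25.002 and 3.57 CPM in PIB cells, against 5.89 to 6.84 CPM in C9a.MEF (log2 1.73 ± 0.36, adjusted p = 0.00039). Hoxd10 was at 13.5, 12.2, 14.9, 13.1 and 3.46 CPM in PIB cells, against 3.65, 3.12, 4.32 and 3.47 CPM in C9a.MEF (log2 1.74 ± 0.28, adjusted p = 1.3e-05). Hoxa13 was at 7.56, 7.81, 7.48, 7.22 and 1.45 CPM in PIB cells, against 1.93 to 2.83 CPM in C9a.MEF (log2 1.48 ± 0.43, adjusted p = 0.0075). In replicate 5 Hoxd10 lay within the fibroblast range, and Hoxd11 and Hoxa13 lay below it. Hoxd12 was at 8.52, 7.98, 8.81, 7.99 and 0.669 CPM in PIB cells, against 1.79 to 3.95 CPM in C9a.MEF (log2 1.52 ± 0.54, adjusted p = 0.029). Hoxd13 was at 27.9, 27.7, 31.5, 28.5 and 5.24 CPM in PIB cells, against 11.6 to 14.96 CPM in C9a.MEF, and with this spread it was not called (log2 0.97 ± 0.48, adjusted p = 0.13). Without replicate 5, 6 HOX genes rose. Replicate 5 had 199 CPM of Xist, against 209 to 297 CPM in replicates 1 to 4, 1141 CPM of Col1a1, within their 1079 to 1246 CPM, and 293 CPM of Ptprc, above their 171 to 215 CPM. Of 17 settings Hoxd10, Hoxd11 and Hoxa13 kept their calls in 17, Hoxc13 in 8 of 16 and Hoxd12 in 7. Fibroblast markers summed to 5943 to 7575 CPM in PIB cells, and 8 of 9 fell.

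**Figure D2:**
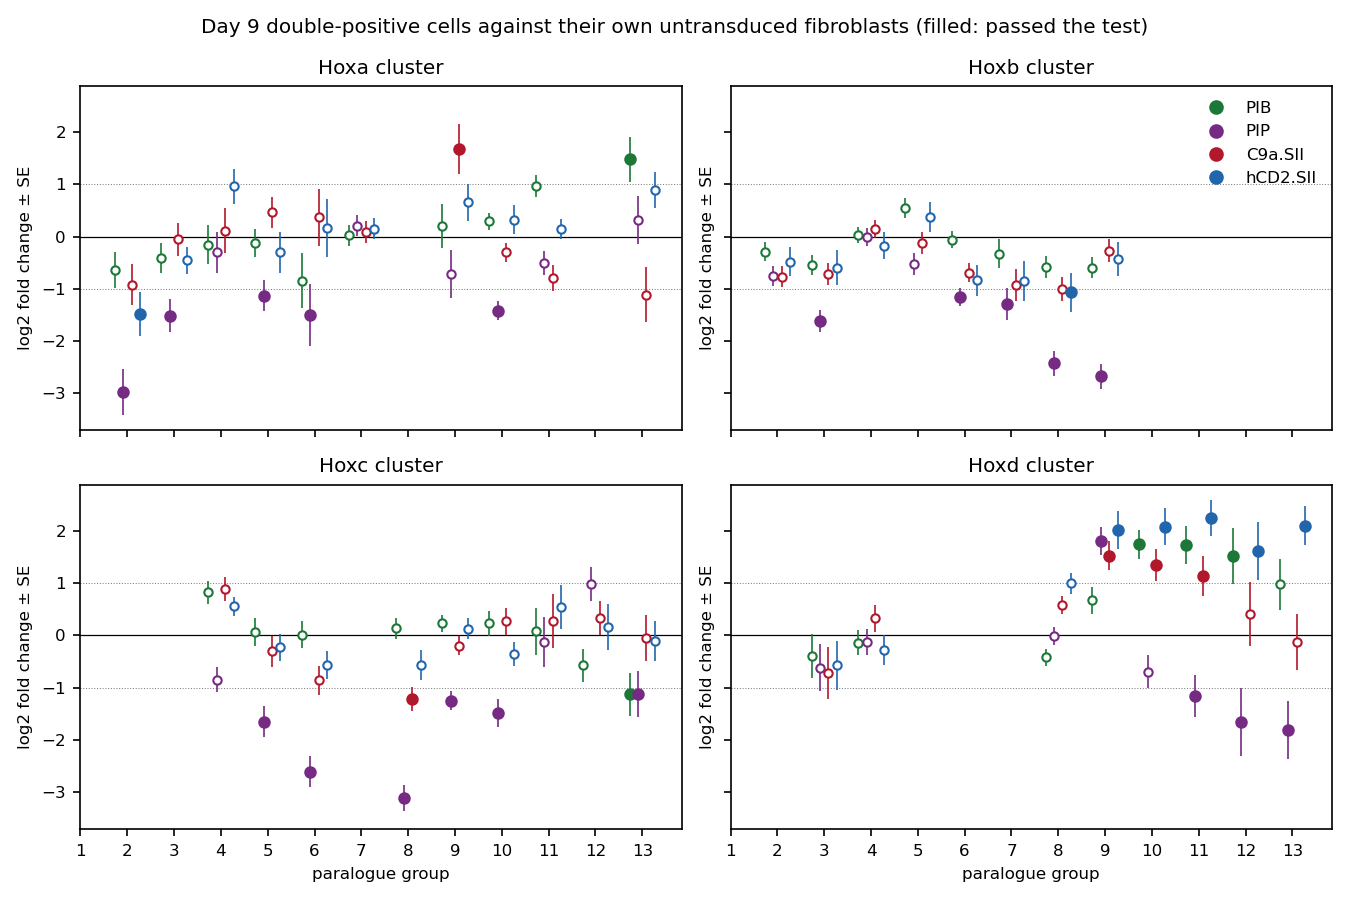
Log2 fold change ± SE of tested HOX genes in day 9 double-positive cells over untransduced fibroblasts of the same line, by cluster and paralogue group; filled points passed the test and dotted lines mark 2-fold. PIP points lie lowest, down to -3.12 at Hoxc8, while Hoxd10 and Hoxd11 lie above 0 after PIB and SII.

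After SII in the C9a line Hoxd9, Hoxd10 and Hoxd11 were higher on day 9, Hoxd12 and Hoxd13 did not pass, and most other HOX genes were within 2-fold of the fibroblasts. Of 36 tested genes 4 rose against C9a.MEF, Hoxd9, Hoxd10, Hoxd11 and Hoxa9, and 1 fell, Hoxc8, while 10.6% of all tested genes rose and 9.56% fell, so the share of HOX genes that rose, 11.1%, is near that of all genes. The medians were -0.09 over the HOX genes and 0.04 over all genes. Hoxd9 was at 1.74, 6.37, 5.73 and 5.14 CPM in C9a.SII cells, against 1.46, 1.70, 2.21 and 1.77 CPM in C9a.MEF (log2 1.53 ± 0.27, adjusted p = 5.2e-05). Hoxd10 was at 12.2, 8.21, 8.13 and 10.4 CPM in C9a.SII cells, against 3.12 to 4.32 CPM in C9a.MEF (log2 1.35 ± 0.30, adjusted p = 0.00081). Hoxd11 was at 19.2, 12.9, 11.6 and 14.995 CPM in C9a.SII cells, against 5.89 to 6.84 CPM in C9a.MEF (log2 1.14 ± 0.39, adjusted p = 0.023). Hoxd10 and Hoxd11 were above the fibroblasts in every library, and Hoxd9 in the 3 libraries of ordinary depth. Replicate 1, listed first, had the receptor-gene floor of 2.504 CPM per kilobase. Part of its HOX levels can therefore be background, and it adds little to these results. Hoxc8 was at 9.59, 16.9, 15.4 and 17.8 CPM in C9a.SII cells, all below the 34.01 to 38.9 CPM of C9a.MEF (log2 -1.22 ± 0.23, adjusted p = 8.0e-05). Hoxb8, at 1.74, 9.51, 10.3 and 9.53 CPM in C9a.SII cells, was also below every fibroblast library, at -0.997 ± 0.23 (adjusted p = 0.0012), just short of 2-fold. Hoxd13 was at 18.3, 9.29, 10.1 and 14.0 CPM in C9a.SII cells and overlapped C9a.MEF (log2 -0.13 ± 0.54, adjusted p = 0.89).

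The call of Hoxa9 rests on 1 library. Hoxa9, a gene of trunk and of blood progenitors, was at 74.98, 12.6, 8.47 and 11.1 CPM in C9a.SII cells, against 6.71 to 7.40 CPM in C9a.MEF (log2 1.67 ± 0.47, adjusted p = 0.0065). Without replicate 1, the library with 1146927 counts, its log2 change was 0.57 (adjusted p = 0.053), and the calls of Hoxd9, Hoxd10, Hoxd11 and Hoxc8 remained.

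In the hCD2 line the posterior Hoxd genes were high in 2 of 3 SII libraries. Of 36 tested genes 5 rose against hCD2.MEF, Hoxd9, Hoxd10, Hoxd11, Hoxd12 and Hoxd13, and 2 fell, Hoxa2 and Hoxb8, while 13.1% of all 18718 tested genes rose and 9.6% fell. The share of HOX genes that rose, 13.9%, is near that of all genes. The medians were 0.01 over the HOX genes and 0.04 over all genes. Hoxd13 was at 7.50, 24.97 and 20.2 CPM in hCD2.SII cells, against 4.05, 3.40, 2.47 and 5.29 CPM in hCD2.MEF (log2 2.10 ± 0.37, adjusted p = 0.00028). Hoxd11 was at 5.48, 18.99 and 23.3 CPM in hCD2.SII cells, against 2.30 to 3.77 CPM in hCD2.MEF (log2 2.25 ± 0.34, adjusted p = 6.0e-05). All 3 libraries were above the fibroblasts, replicate 1 by far less than the others. Hoxd10 was at 3.94, 13.2 and 17.7 CPM in hCD2.SII cells, against 2.27 to 2.86 CPM in hCD2.MEF (log2 2.08 ± 0.35, adjusted p = 0.00016). Hoxd9 was at 2.31, 11.5 and 8.66 CPM in hCD2.SII cells, against 1.54 to 2.10 CPM in hCD2.MEF (log2 2.01 ± 0.37, adjusted p = 0.00038). Hoxd12 was at 0.770, 4.93 and 6.79 CPM in hCD2.SII cells, against 0.729 to 1.74 CPM in hCD2.MEF (log2 1.62 ± 0.56, adjusted p = 0.027), and its replicate 1 lay within the fibroblast range. The trunk genes were the other way round, with Hoxc8 at 38.6, 17.9 and 14.4 CPM in hCD2.SII cells, against 31.5 to 35.8 CPM in hCD2.MEF (log2 -0.56 ± 0.28, adjusted p = 0.12), and only replicate 1 was not below the fibroblasts.

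Replicates 2 and 3 of hCD2.SII are the libraries with 0.897 and 3.40 CPM of Xist, against 144.4 CPM in replicate 1, and with 164.2 and 163.4 CPM of the Y-linked sum, against 72.8. They also had 145.9 and 101.8 CPM of Col1a1, against 2801 in replicate 1, so both marks move with the posterior genes, and their part was not tested. With both left out, 1 library remains on day 9, whose spread is assumed to be like that of the other groups. In that fit 0 HOX genes passed in either direction, and Hoxd13 was at 0.94 (adjusted p = 0.018), Hoxd11 at 0.79 (0.054), Hoxd10 at 0.61 (0.18), Hoxd9 at 0.40 (0.51) and Hoxd12 at -0.70 (0.45), where each value in parentheses is an adjusted p. Same-numbered libraries of this comparison deviated weakly together, with correlations of 0.109 to 0.218 over 3 pairs, and the labels give no pairing. With the replicate number as a block 4 HOX genes rose and 3 fell, with Hoxd12 losing its call and Hoxb7 gaining one.

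**Figure D3:**
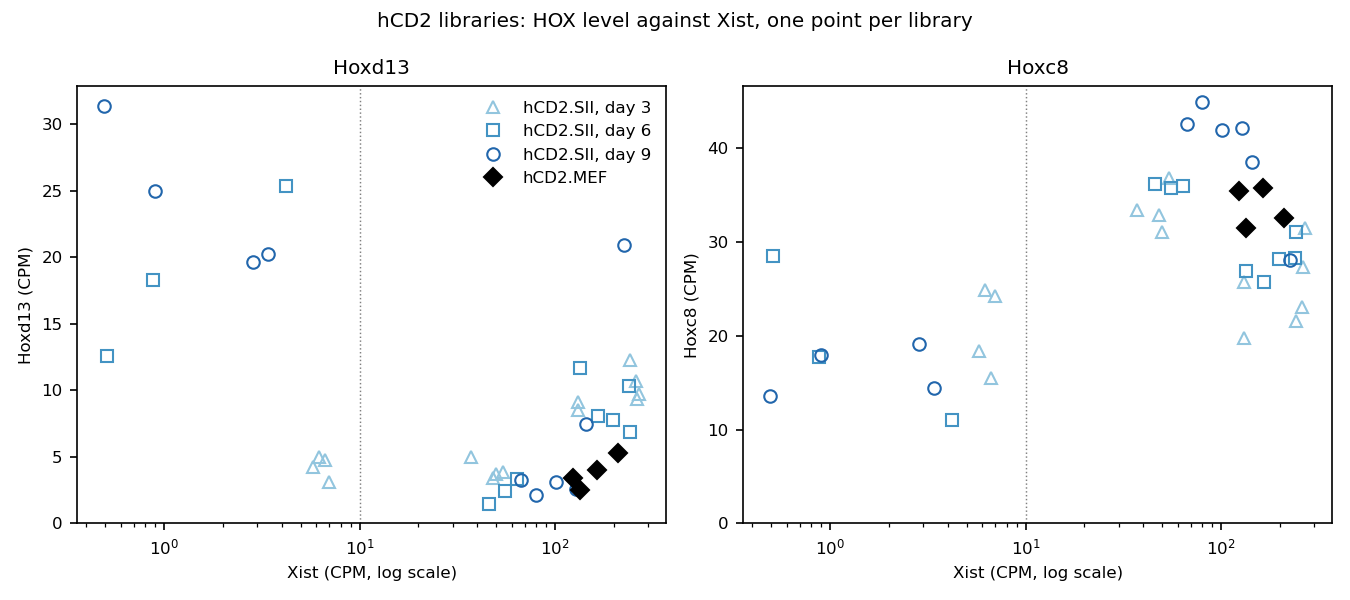
CPM of Hoxd13 and of Hoxc8 against CPM of Xist (log scale) in the hCD2.SII and hCD2.MEF libraries, 1 point per library, with a dotted line at 10 CPM of Xist. The 11 hCD2.SII libraries under 10 CPM of Xist have a median of 18.3 CPM of Hoxd13, against 7.19 CPM in the other 24, and medians of 17.9 and 31.3 CPM of Hoxc8.

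Between the 2 lines after SII no HOX gene was called. Of 36 tested genes 0 were higher and 0 lower in C9a.SII than in hCD2.SII day 9 double-positive cells, against 0.259% and 0.157% of all 17789 tested genes, and 6 HOX genes had an unadjusted p under 0.05. The hCD2.SII group is spread widely, so this is no sign that the lines became alike. Without those low in Xist 1 hCD2.SII library remains, so the spread within that group cannot be measured. Against that library the log2 difference of C9a.SII was 1.37 for Hoxd11, 1.26 for Hoxd10 and -1.28 for Hoxc8. In the test of the response to SII 1 HOX gene passed, Hoxd13, whose change was smaller in C9a than in hCD2 cells by 2.25 on the log2 scale (-2.25 ± 0.49, adjusted p = 0.045). Over all genes this signed difference, C9a minus hCD2, was called lower in 0.388% and higher in 0.18%. The call held in 5 of 22 settings, with an adjusted p of up to 0.55. Without the libraries low in Xist, which leaves 1 hCD2.SII library, the difference was -1.06.

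The cocktails were also set against each other on day 9. Of 36 HOX genes 21 were higher and 2 lower in PIB than in PIP cells, against 8.97% and 9.5% of all genes. Hoxc8 differed by 3.25 ± 0.24, Hoxd12 by 3.18 ± 0.62, Hoxd11 by 2.89 ± 0.39, Hoxd13 by 2.78 ± 0.54 and Hoxc6 by 2.62 ± 0.29 in log2, and the 2 lower were Hoxc12 and Hoxd9. In PIP against C9a.SII cells 1 was higher, Hoxa13, and 19 were lower, against 9.99% and 11.8%, with Hoxb9 at -2.40 ± 0.24 and Hoxa9 at -2.39 ± 0.49. Without C9a.SII replicate 1, the library with 1146927 counts, Hoxa9 was at -1.29. In PIB against C9a.SII cells 3 were higher, Hoxa13, Hoxa11 and Hoxc8, and 3 lower, among them Hoxa9 and Hoxd8, against 8.2% and 10.6%. In each direction this is 8.33% of tested HOX genes, near or below the share of all genes. Without that library Hoxa9 was at -0.37 in PIB against C9a.SII cells (adjusted p = 0.20), and its call was lost. Hoxa13 was at 2.59 ± 0.51 and Hoxa11 at 1.75 ± 0.24, both higher in PIB cells. Hoxa11 was at 9.24, 10.5, 12.5, 12.6 and 6.24 CPM in PIB cells and at 1.74, 2.92, 4.11 and 3.11 CPM in C9a.SII cells, with no overlap. These comparisons and those against C9a.MEF share libraries.

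HOX genes were already lower after PIP and PIB on day 3, beyond the share of all genes. Against C9a.MEF, day 3 PIP double-positive cells had 14 HOX genes lower and 0 higher, against 9.02% and 9.38% of all genes. Hoxb8 (log2 -2.67 ± 0.28), Hoxa2 (-2.90 ± 0.48), Hoxc6 (-2.20 ± 0.32) and Hoxc8 (-2.20 ± 0.25) were among them. PIB cells on day 3 had 10 lower and 6 higher, against 9.28% and 12.3%. The 6 were Hoxa11, Hoxa13, Hoxd10, Hoxd11, Hoxd12 and Hoxd13, all posterior, and of the 10 lower 6 were anterior, 3 central and 1 posterior. In C9a.SII cells 5 were higher, Hoxc4, Hoxd9, Hoxd10, Hoxd11 and Hoxd12, and 2 lower, Hoxb7 and Hoxb8, against 9.48% and 8.44%. In hCD2.SII cells against hCD2.MEF 3 were higher, Hoxd9, Hoxd10 and Hoxd11, and 2 lower, Hoxa2 and Hoxb8, against 10.4% and 12%. Without the 2 libraries low in Xist on that day 4 were higher, Hoxc4, Hoxd11, Hoxd12 and Hoxd13, and 3 lower. With all libraries 13.9% of HOX genes were higher and 5.56% lower after SII in the C9a line. In the hCD2 line 8.33% were higher and 5.56% lower. Only the higher share in the C9a line was above that of all genes.

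In PIB cells 5 anterior and trunk genes were higher on day 9 than on day 3. Hoxb5, Hoxb7, Hoxb9, Hoxc4 and Hoxd4 had log2 changes of 1.01 to 1.08, and 0 were lower, against 3.66% and 8.55% of all genes. Hoxb9 was at 32.1 to 35.4 CPM in C9a.MEF, 7.47 to 11.2 CPM on day 3, 13.5 to 19.3 CPM on day 6 and 19.4 to 23.5 CPM on day 9. The days did not overlap. Hoxc8 was at 34.01 to 38.9 CPM in C9a.MEF, 15.3 to 26.8 CPM on day 3, 29.7 to 36.7 CPM on day 6 and 35.1 to 40.6 CPM on day 9. All of these day 9 changes are close to 2-fold, and the 5 calls fell to 0 when the days were fitted without the other groups. PIP had 0 calls in either direction between these days, against 2.44% and 2.95% of all genes, with 8 HOX genes at an unadjusted p under 0.05, and C9a.SII had 0 and 0, against 1.84% and 0.784%, with 6. In hCD2.SII cells Hoxd10 and Hoxd13 were higher on day 9 and Hoxc10 was lower, against 6.05% and 3.21%. These are 5.56% and 2.78% of tested HOX genes, near the shares of all genes. Without the libraries low in Xist the Hoxd13 change was -0.32 and the Hoxd10 change -0.25.

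Summed without Hoxc12, the HOX genes of the PIB course were at 373.5 ± 11.9 CPM in C9a.MEF, 282.4 ± 45.9 CPM on day 3, 401.6 ± 19.2 CPM on day 6 and 387.2 ± 16.2 CPM on day 9 (SD, n = 4, 4, 4 and 5). In PIP cells the sums were 163.7 ± 56.5, 154.97 ± 51.3 and 141.1 ± 3.8 CPM on those days, and in C9a.SII cells 348.3 ± 56.1, 368.2 ± 18.9 and 332.1 ± 24.7 CPM. PIP was below the fibroblasts on all 3 days.

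**Figure D4:**
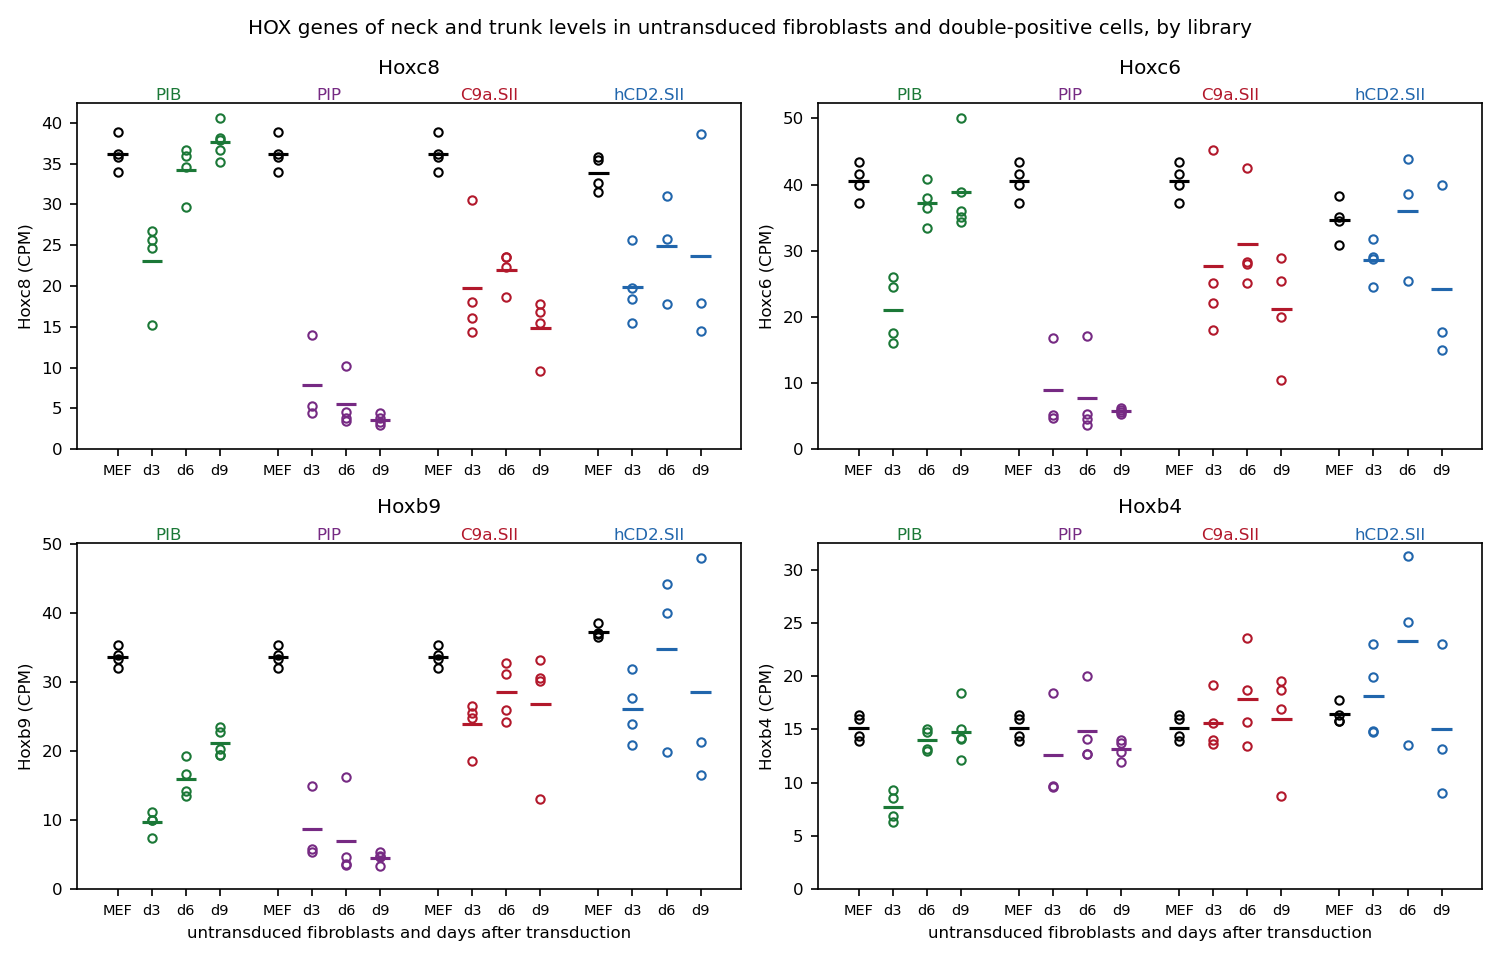
CPM of Hoxc8, Hoxc6, Hoxb9 and Hoxb4 in each library, with group means as bars, in untransduced fibroblasts and in double-positive cells on days 3, 6 and 9. Hoxc8, Hoxc6 and Hoxb9 are low after PIP, with day 9 Hoxc8 at 2.96 to 4.38 CPM, while day 9 Hoxb4 is at 11.9 to 14.0 CPM.

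Single libraries stood apart on days 3 and 6. In PIP double-positive cells Hoxc8 was at 14.0 CPM in day 3 replicate 3, against 4.46 and 5.34 CPM in the other libraries, and at 10.3 CPM in day 6 replicate 4, against 3.44 to 4.61 CPM. In the PIP CD45 gate on day 3 Hoxc8 was at 23.8 CPM in replicate 5, which had 1.71 CPM of Ptprc, against 2.02 to 4.50 CPM in replicates 1 to 4. In the PIB reporter gate on day 6 Hoxc8 was at 5.28 CPM in replicate 4, against 41.1 to 44.7 CPM in replicates 1 to 3. Col1a1 was at 206 CPM in that replicate 4, against 2020 to 2105 CPM in replicates 1 to 3, and the cause was not tested. Without double-positive replicate 3, day 3 PIP cells had 18 HOX genes lower and 1 higher.

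The posterior Hoxd genes varied widely between libraries of PIB and C9a.SII. Summed over Hoxd10 to Hoxd13, PIB double-positive cells were at 65.6 to 94.4 CPM on day 3, 97.1 to 103.5 CPM on day 6 and 12.9 to 79.1 CPM on day 9, and C9a.MEF at 23.9 to 26.99 CPM. C9a.SII cells were at 19.04 to 68.4, 18.5 to 84.3 and 33.04 to 55.8 CPM over the same days, and PIP cells at 7.50 to 13.3, 5.72 to 8.29 and 7.48 to 8.92 CPM. PIP stayed below the fibroblasts on each day, PIB was above them except for day 9 replicate 5, and C9a.SII ranged from below to above them on days 3 and 6. Within C9a.SII on day 3 Hoxd13 was at 29.9, 9.68, 27.6 and 3.06 CPM. Replicate 2 had 1.52 CPM of Ptprc, against 114.8 to 334 CPM in the others, and replicate 4 had 461 CPM of Xist, against 88.5 to 110.9 CPM. Without replicate 2 there were 6 higher and 2 lower calls on that day, and without replicate 4 there were 4 higher and 4 lower. In the CD45 gate on day 3 it was at 37.6, 47.5, 46.3 and 36.4 CPM in replicates 1 to 4 and at 2.26 CPM in replicate 5.

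**Figure D5:**
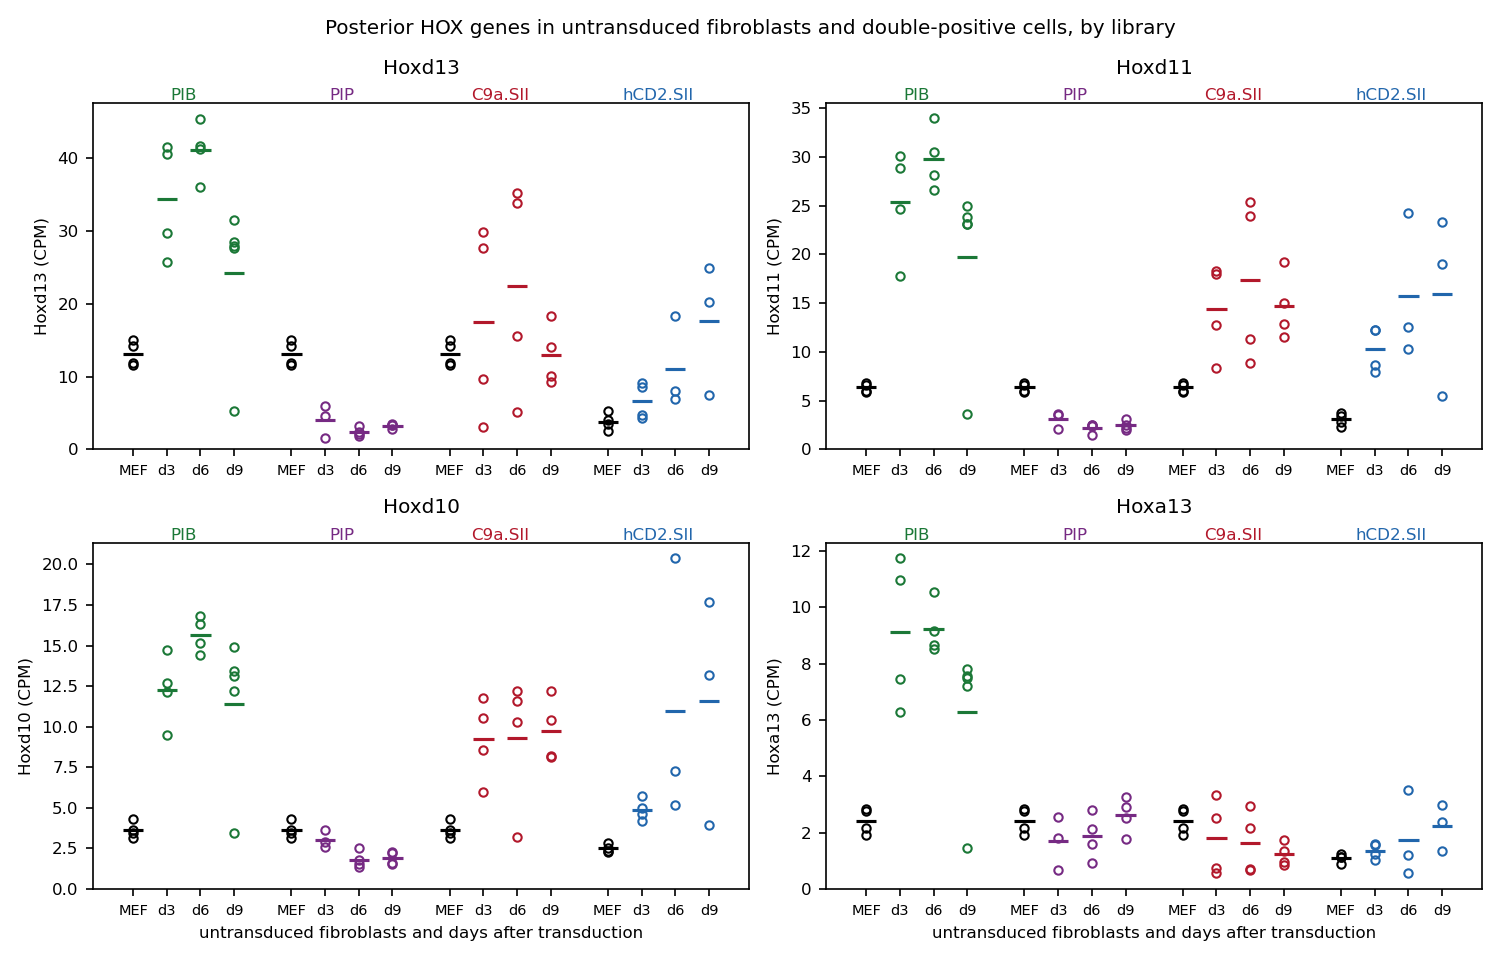
CPM of Hoxd13, Hoxd11, Hoxd10 and Hoxa13 in each library, with group means as bars, in untransduced fibroblasts and in double-positive cells on days 3, 6 and 9. PIB libraries lie above C9a.MEF except day 9 replicate 5, with Hoxd13 at 5.24 CPM, and PIP libraries lie below it for Hoxd13 and Hoxd11.

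In the other sort gates on day 9 PIP again lowered trunk genes. PIP cells sorted on the reporter alone had 17 HOX genes lower and 1 higher, against 12% and 14.8% of 18849 genes, and those sorted on CD45 alone had 15 lower and 1 higher, against 12.4% and 11.1%. The gene that rose was Hoxd9 in both gates (log2 1.16 ± 0.23 and 1.55 ± 0.23), and Hoxc8 fell by 2.79 and by 2.39. PIB cells of the reporter gate had 1 higher, Hoxd10, and 0 lower, against 6.99% and 7.86%, and of the CD45 gate 1 higher, Hoxd10, and 1 lower, against 8.55% and 6.22%. Hoxd13 was spread within both, at 20.9, 6.60, 17.5, 22.5 and 4.12 CPM in the reporter gate and at 17.4, 23.8, 2.94 and 5.17 CPM in the CD45 gate. C9a.SII cells of the reporter gate had 1 higher, Hoxd9, and 0 lower, against 9.61% and 8.04%, and of the CD45 gate 3 higher, Hoxd9, Hoxd10 and Hoxd11, and 0 lower, against 7.07% and 5.96%. The 8.33% of HOX genes that rose in the CD45 gate is near the share of all genes. In hCD2.SII cells of the YFP gate 0 were higher and 0 lower, against 1.39% and 0.481%, with 3 at an unadjusted p under 0.05. Hoxb9 there was at 57.6, 60.1, 55.9 and 51.997 CPM and Ptprc at 0.45 to 0.626 CPM. In hCD2.SII cells of the CD45 gate 6 were higher, Hoxa13 and Hoxd9 to Hoxd13, and 3 lower, against 18.5% and 11.1%. These are 16.7% and 8.33% of tested HOX genes, below the shares of all genes. Without the 2 libraries low in Xist, 4 were higher, with Hoxd11 at 2.71 ± 0.25 and Hoxd13 at 2.32 ± 0.26, from the 1 library that remained, where Hoxd13 was at 20.95 CPM and Xist at 225 CPM.

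In splenic dendritic cells the trunk gene Hoxc8 was low, and the trunk gene Hoxa7 exceeded the fibroblasts only in pDC replicates 2 to 5. Summed without Hoxc12 the HOX genes were at 70.7 ± 20.3 CPM in cDC1 (SD, n = 3), 38.8 ± 2.8 in cDC2 (n = 3) and 159.4 ± 94.3 in pDC (n = 5). The pDC group had the highest HOX level, and replicate 1 of it, the library with 3.52 CPM per kilobase of the receptor genes, was at 318.8 CPM. Hoxa7 was at 9.79, 35.1, 34.4, 28.3 and 30.2 CPM in pDC, 8.03, 8.58 and 8.46 CPM in cDC2, and 2.05, 3.30 and 4.03 CPM in cDC1. Its level in pDC replicates 2 to 5 was above all fibroblast libraries. Hoxa9, which is known from blood progenitors, was at 64.7, 16.8, 12.1, 12.1 and 3.94 CPM in pDC and at 1.14 to 5.04 CPM in the conventional cells. The 64.7 CPM is from replicate 1 with its high floor. Hoxc8 was at 0.150 to 1.26 CPM in the conventional cells and at 0.246 to 0.967 CPM in pDC replicates 2 to 5, below the 2.96 to 4.38 CPM of day 9 PIP cells. No test was run on the spleen groups.

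Of 9 HOX cofactor genes 2 fell and 0 rose in day 9 double-positive PIP cells, against 12.4% and 12.5% of all genes. Meis2 was at 8.54, 8.85, 7.28 and 9.13 CPM in PIP cells, against 23.5, 23.7, 26.01 and 26.3 CPM in C9a.MEF (log2 -1.36 ± 0.13, adjusted p = 1.6e-09), and Meis1 fell too (log2 -1.11 ± 0.22, adjusted p = 9.6e-05). In C9a.SII cells Meis2 rose instead, at 39.2, 74.8, 64.9 and 81.3 CPM (log2 1.41 ± 0.13, adjusted p = 9.7e-10), and Pknox2 fell (log2 -1.65 ± 0.40). In PIB cells Pbx3 and Pbx4 fell and 0 of 9 rose, and in hCD2.SII cells Meis3 rose and 0 fell. All genes rose and fell in shares of 9.11% and 9.31% in PIB, 10.6% and 9.56% in C9a.SII, and 13.1% and 9.6% in hCD2.SII. A single call among 9 genes is near these shares. Without the libraries low in Xist Meis3 was at 0.70 (adjusted p = 0.00083) and no cofactor passed. Pbx2 was at 24.8 to 27.4 CPM in PIP cells and at 23.4 to 26.1 CPM in C9a.MEF.

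Genes of retinoic acid signalling, which sets HOX expression in the embryo, were among those that changed in PIP cells. Of 12 tested upstream genes 3 rose and 4 fell there, against 12.5% and 12.4% of all genes. Rarb, a retinoic acid receptor gene, was at 50.996, 59.9, 53.4 and 56.9 CPM in PIP cells, against 2.46, 1.79, 2.11 and 1.47 CPM in C9a.MEF (log2 5.02 ± 0.37, adjusted p = 2.5e-11). Aldh1a3, which makes retinoic acid, was at 6.54, 4.72, 7.73 and 6.11 CPM in PIP cells, against 0.231 to 0.357 CPM in C9a.MEF (log2 4.62 ± 0.52, adjusted p = 2.3e-08). In both the groups were wide apart. Cyp26a1 rose (log2 1.95 ± 0.41), and Cyp26b1 (log2 -3.73 ± 0.99), Zfp503 (log2 -2.83 ± 0.20), Aldh1a2 and Gdf11 fell. In PIB cells Rarb rose (log2 1.71 ± 0.35), and Cyp26b1, Gdf11 and Zfp503 fell. In C9a.SII cells Rarb and Cyp26b1 rose and Zfp503 and Gdf11 fell, where Cyp26b1 was at 452 CPM in replicate 1 and at 21.4 to 28.7 CPM in the others, within or near the 21.7 to 34.5 CPM of C9a.MEF. In hCD2.SII cells 2 of 9 fell, Aldh1a2 (log2 -2.25 ± 0.40) and Zfp503 (log2 -1.47 ± 0.50), and 0 rose, against 9.6% and 13.1% of all genes. Without the libraries low in Xist Aldh1a2 was at -2.26 (adjusted p = 0.00052) and Zfp503 at -0.34 (adjusted p = 0.059).

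Prrx1, a limb and skeletal mesenchyme factor, fell in all 4 cocktail and line combinations, at 18.3 to 24.9 CPM in PIP, 117.1 to 135.003 CPM in PIB and 79.3 to 128.7 CPM in C9a.SII cells, against 387 to 411 CPM in C9a.MEF, with log2 changes of -3.96 ± 0.34, -1.60 ± 0.29 and -1.81 ± 0.31. In hCD2.SII cells it was at 262, 62.8 and 55.5 CPM, against 386 to 426 CPM in hCD2.MEF (log2 -1.73 ± 0.45), and without the libraries low in Xist the log2 change was -0.66, short of 2-fold. Of the tested limb and trunk factors 2 of 24 rose and 4 fell in PIB, 2 of 24 rose and 5 fell in PIP, 4 of 24 rose and 3 fell in C9a.SII, and 3 of 23 rose and 2 fell in hCD2.SII. All genes rose and fell in shares of 9.11% and 9.31% in PIB, 12.5% and 12.4% in PIP, 10.6% and 9.56% in C9a.SII, and 13.1% and 9.6% in hCD2.SII, so several of these counts are near the share of all genes. Pitx1, a hindlimb factor, rose in C9a.SII (log2 2.04 ± 0.36) and hCD2.SII cells (log2 1.70 ± 0.46). Of the head and ventral organ factors 2 of 29 rose and 5 fell in PIB, 4 of 29 rose and 4 fell in PIP, 9 of 29 rose and 1 fell in C9a.SII, and 5 of 27 rose and 1 fell in hCD2.SII. Six2 (log2 2.19 ± 0.46 in C9a.SII and 2.19 ± 0.52 in hCD2.SII) and Dlx1 (log2 2.27 ± 0.50 and 2.02 ± 0.71) were among those that rose. Without the libraries low in Xist Pitx1 was at -0.13, Six2 at 0.52 and Dlx1 at -2.24 in hCD2.SII cells, and none of the 3 passed.

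The noncoding and flanking genes of the clusters were low. In hCD2.SII cells 4 of 11 rose and 0 fell, against 13.1% and 9.6% of all genes. The 4 were Halr1 (log2 2.14 ± 0.47), Evx1 (log2 1.86 ± 0.57), Hoxa11os (log2 1.54 ± 0.42) and Evx2, the neighbour of Hoxd13 (log2 1.67 ± 0.41). Evx2 was at 1.06, 3.14 and 4.42 CPM in hCD2.SII cells, against 0.558 to 0.973 CPM in hCD2.MEF, so the 2 higher libraries were again replicates 2 and 3. Without them Halr1 was at 1.34 (adjusted p = 0.063), Evx1 at 0.51, Evx2 at 0.35 and Hoxa11os at -0.01, and none of these passed, while Hoxb5os did (log2 1.53, adjusted p = 0.015). In PIB cells 1 of 10 fell, Hoxb5os (log2 -1.60 ± 0.43), in PIP cells 2 fell, Hoxb5os (log2 -2.20 ± 0.49) and Hoxaas2 (log2 -1.43 ± 0.49), and in C9a.SII cells 0 of 10 passed. Of all genes 9.31% fell in PIB, 12.4% in PIP and 9.56% in C9a.SII, so the count in PIB is near that share. Hotair, which lies in the Hoxc cluster, was at 0 to 0.0912 CPM in C9a.MEF and at 0 to 0.081 CPM in hCD2.MEF.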

How the data were processed

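Mouse bulk RNA libraries were made from RNA of 5000 sorted cells each with a SMARTer Pico v3 kit for stranded total RNA, per the labels' protocols. Raw counts per gene were used as deposited by the authors. STAR 2.7.9a, Salmon 1.10.1 and the mm10 build are named in the submitters' processing notes, and the strand setting and annotation used for counting are not given in the sources used here. If strand was not used, reads of HOX genes and of their antisense neighbours cannot be told apart. Of 57010 identifiers 52029 were named with a GENCODE M21 table and 4981 had no name. Coordinates are GRCm38, which is mm10.

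Levels are CPM of the library total, and CPM per kilobase uses the length of the exon union. Tests used edgeR 4.0.16 in R 4.3.3: filterByExpr, TMM factors (0.861 to 1.70), a robust quasi-likelihood fit, and Benjamini-Hochberg adjustment over all genes tested. The call rule was a change of at least 2-fold together with an adjusted p under 0.05. Counts of HOX genes with an unadjusted p under 0.05 are given without the share of all genes and are not read as results. The lines were fitted as 2 groups. Double-positive C9a groups of days 3 and 9, the other C9a gates of day 9, the hCD2 groups, and the 4 groups of both lines with SII made 1 fit each. Every adjusted p in the text is from edgeR unless DESeq2 is named. Scripts were tested on simulated data. Alternatives were DESeq2 1.42.0, its size factors, no filter, each pair of groups alone, 1 fit over all groups, the replicate number as a block, and leaving out each library, libraries under 2000000 counts, CD45-gated libraries under 5 CPM of Ptprc, or libraries under 10 CPM of Xist. The Xist alternative was chosen after seeing the data. Members and lists were chosen with earlier results of these data known.

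Values in every library are given for the HOX genes with at least 5 CPM in either fibroblast line and for those called between the lines. For other lists, called genes with the 3 largest changes in each direction, or genes with at least 10 CPM in fibroblasts, could be named. Same-numbered libraries deviated together in hCD2.SII day 9 double-positive cells and hCD2.MEF, with correlations of 0.109 to 0.218 over 3 pairs, so the block result stands beside that comparison. The labels give no pairing, and these correlations are too weak to settle whether the numbers pair the libraries. Sequences are from RefSeq on GRCm38.p6. One HOX gene and one cofactor gene are counted in the totals and are not reported here.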

Additional observations from a re-analysis of the deposited data

Results flagged for a closer look

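Of 200 groups of values checked for a library far from its group, 15 held one, and chance flags about 1 in 20. PIB day 9 double-positive replicate 5 was far below its group for Hoxa13 (1.45 CPM, against 7.22 to 7.81), Hoxd11 (3.57, against 23.1 to 25.002), Hoxd12 (0.669, against 7.98 to 8.81) and Hoxd13 (5.24, against 27.7 to 31.5), and above it for Hoxc6 (50.1, against 34.3 to 38.8). C9a.SII day 9 double-positive replicate 1, the library with 1146927 counts, was above its group for Hoxa9 (74.98 CPM, against 8.47 to 12.6) and Hoxd12 (6.10, against 2.68 to 3.25). It was below its group for Hoxb2 (2.62, against 7.18 to 7.56), Hoxb8 (1.74, against 9.51 to 10.3), Hoxb9 (13.1, against 30.2 to 33.2) and Hoxd8 (11.3, against 21.9 to 22.9). Hoxc10 was at 40.7 CPM in C9a.SII day 3 double-positive replicate 4, against 22.8 to 24.8, and Hoxd8 at 18.008 CPM in hCD2.SII day 3 double-positive replicate 4, against 16.1 in the others. In C9a.MEF, Hoxb3 was at 16.2 CPM in replicate 4 and Hoxc9 at 16.7 CPM in replicate 1, both close to the rest of the group. The response of Hoxd13 to SII differed between the lines, by -2.25 in log2 (C9a minus hCD2, adjusted p = 0.045 with edgeR), in a test of the difference itself. That call held in 5 of 22 settings. Without the libraries low in Xist, which leaves 1 hCD2.SII library on day 9, the difference was -1.06.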

How the results depend on the processing

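Of 374 counts of HOX calls under settings other than leaving out 1 library, 54 moved by more than 1.5 times, 297 of 2980 calls of single genes were lost, and 3 signs turned. All of these are day 9 cells unless a day is given, DP is double positive, tdT, YFP and CD45 are the single gates, and the cause of each change was not tested. The 3 signs were in hCD2.SII without libraries under 10 CPM of Xist: Hoxd12 on day 9 was at -0.70, and between days 9 and 3 Hoxd13 was at -0.32 and Hoxd10 at -0.25. Without those libraries 1 hCD2.SII DP library remains on day 9, so the counts of calls that involve it are not given here. With 1 fit over all groups the higher calls were 0 between the lines, 2 in C9a.SII day 3 DP, 0 in PIP against C9a.SII and 0 in hCD2.SII day 9 over day 3. The lower calls in that fit were 1 in PIB DP, 2 in C9a.SII DP, 4 in C9a.SII day 3 DP, 2 in C9a.SII tdT, 1 each in hCD2.SII DP of days 9 and 3, 6 in hCD2.SII CD45 and 0 for the SII response. With each pair of groups alone, 2 were higher in PIP DP, PIB tdT, C9a.SII tdT and PIB CD45, and 0 in PIB and in hCD2.SII day 9 over day 3. In those pairs 1 was lower in PIB DP, PIB tdT and hCD2.SII DP, and 2 in C9a.SII DP. DESeq2 and its size factors in edgeR each gave 1 higher in PIB day 9 over day 3 and 2 higher in PIB tdT and C9a.SII tdT. DESeq2 also gave 1 higher in C9a.SII day 9 over day 3 and 2 lower for the SII response, where its size factors gave 0. With no filter 3 were higher in C9a.SII day 3 DP, 0 in PIP against C9a.SII and 0 in hCD2.SII day 9 over day 3, while 1 was lower in PIB DP and hCD2.SII DP and 2 in C9a.SII tdT. Without libraries under 2000000 counts 5 were lower in PIB against C9a.SII and 2 for the SII response.

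Outside hCD2.SII DP against hCD2.MEF no comparison had every correlation of same-numbered libraries over 0.1, and the labels give no pairing. With the number as a block, 2 HOX genes were higher in PIB day 9 over day 3, 5 in PIB against C9a.SII, 2 in PIB tdT and 1 in hCD2.SII day 9 over day 3. In the same fits 1 was lower in PIB DP, 2 in C9a.SII DP, 2 in PIB tdT, 5 in hCD2.SII CD45 and 0 for the SII response.

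Leaving out 1 library at a time gave these ranges of higher calls: 2 to 4 between the lines, 3 to 6 in PIB DP, 1 to 2 in PIP DP, 0 to 1 in PIP day 3 DP, 3 to 6 in C9a.SII day 3 DP, 4 to 8 in hCD2.SII DP and 3 to 5 in hCD2.SII day 3 DP. They were 1 to 2 in PIB tdT and C9a.SII tdT, 0 to 2 in PIB CD45, 3 to 5 in PIB against C9a.SII, 0 to 2 in PIP against C9a.SII and in C9a.SII against hCD2.SII, and 0 to 1 for the SII response. For day 9 over day 3 they were 0 to 5 in PIB, 0 to 1 in PIP and C9a.SII, and 0 to 3 in hCD2.SII. Lower calls ranged over 1 to 2 in PIB DP, 1 to 3 in C9a.SII DP, 2 to 4 in C9a.SII day 3 DP, 0 to 11 in hCD2.SII DP, 1 to 8 in hCD2.SII CD45, 0 to 1 in PIB CD45, and 0 to 2 in PIB tdT and C9a.SII tdT. They were 2 to 5 in PIB against C9a.SII, 0 to 1 in C9a.SII against hCD2.SII, 0 to 2 in PIP and 1 to 2 in hCD2.SII day 9 over day 3, and 0 to 4 for the SII response. The lower calls of PIP DP were 17 to 19 without any 1 library, against 20 with all. None of 46 fibroblast levels moved by more than its spread on TMM-scaled library sizes. Depth limits C9a.SII day 9 double-positive replicate 1 most, with 1146927 counts, and genes near the floor of the olfactory receptors could not be compared.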
